A study of Mus musculus with 3 samples.

Results

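Hox gene signals were read in imLECs, an immortalized line of lymphatic endothelial cells from mouse skin, on 1 array for each of 3 cultures. The members are all genes whose annotated symbol is Hox, then a, b, c or d, then a number, and which have a probe set annotated to that 1 gene alone. This gave 33 genes of 18194 measured genes: 9 in the HoxA cluster (chromosome 6), 9 in HoxB (chromosome 11), 7 in HoxC (chromosome 15) and 8 in HoxD (chromosome 2). Hox genes without such a probe set were not analysed here. All cultures were imLECs sorted from normal skin of H-2Kb-tsA58 mice (ImmortoMice), a strain in which a heat-labile form of the SV40 T antigen is driven by the interferon-responsive H-2Kb promoter. They were grown at 33 °C with interferon-gamma and then kept for 3 days at 37 °C without it, so all 3 cultures carry the transgene and none is an untreated control. The only label that differs is the passage number, 13, 14 or 18. Each passage is 1 culture, so a difference between passages has no replicate of its own.

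Hox genes encode homeodomain transcription factors that record where along the body axis a cell arose. Genes at the 3′ end of a cluster (paralog group 1) are switched on early and in anterior parts of the embryo, and genes towards the 5′ end (group 13) later and in posterior and distal parts, an order known as collinearity. Cells of adult skin, fibroblasts and endothelium among them, keep a site-dependent subset of these genes active. In endothelial cells, HOXD10 is known for holding vessels in a resting state, HOXA9 for endothelial commitment and migration, and HOXD8 as a factor of lymphatic vessel development.

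Levels are log2 signal intensity of a gene's brightest probe set. The detection floor of an array was the 95th percentile of 41 genes restricted to other tissues, and lay at 5.64, 5.70 and 5.72 at passages 13, 14 and 18. Detected means above this floor in every culture, and a value under it sets only an upper limit. Intensities of different genes also carry the binding strength of their probes, so an order among genes is one of signals and not of transcript numbers. All 5 endothelial markers (Pecam1, Cdh5, Erg, Tek and Kdr) and 5 of 6 lymphatic markers were detected, as the label has it. The other lymphatic marker, Prox1, which specifies lymphatic identity, read 6.20, 5.11 and 5.60 and was above the floor at passage 13 alone. Of the markers of other skin cells, 1 of 3 leukocyte genes (Cd68, not Ptprc or Itgam), 0 of 3 keratinocyte genes, 2 of 4 fibroblast genes and 2 of 3 mural genes were detected. The median intensity was 25.7 to 26.3 on the 3 arrays, and the Gapdh 3′/5′ signal ratio was 8.59, 7.10 and 19.4, highest at passage 18. The Actb ratio was much smaller, at 1.18, 1.20 and 1.42, and also highest at passage 18.

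Of the 33 Hox genes 10 were detected (30.3%), against 49.1% of all genes. At passages 13, 14 and 18 respectively 10, 14 and 14 of them exceeded the floor, against 52.7%, 52% and 52.1% of all genes. The brightest were 3 neighbours in HoxD, Hoxd8, Hoxd9 and Hoxd10, whose means lay between the 88.8th and 94.1st percentile of all genes. The other 7 detected genes were Hoxa3, Hoxa10, Hoxb3, Hoxb4, Hoxb5, Hoxb9 and Hoxc9, all of low to middle signal. A further 7 were above the floor on some arrays and 16 on none. The median Hox level was 4.75, against 5.97 over all genes, and it was 4.66 over the 30 genes other than the HoxD trio.

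**Figure D1:**
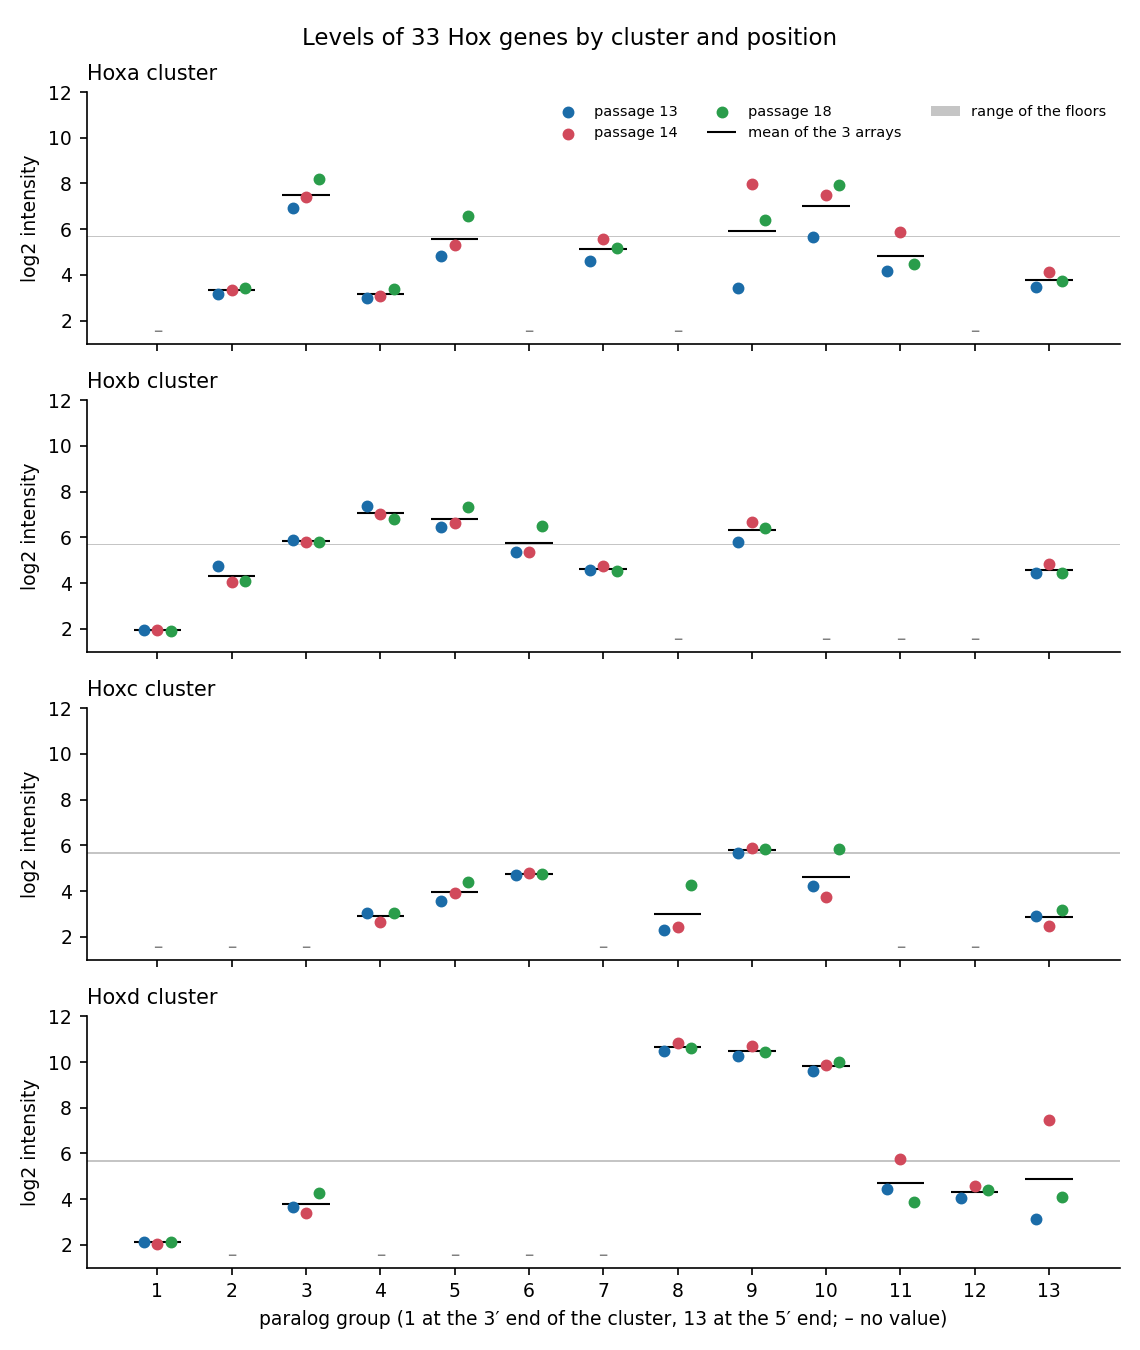
Log2 intensity of the 33 measured Hox genes by cluster (panels) and paralog group (x axis), with 1 point for each of passages 13, 14 and 18, a bar for their mean and a grey line spanning the 3 floors. Hoxd8, Hoxd9 and Hoxd10 lie between 9.63 and 10.83, whereas the other HoxD genes lie under the floor on at least 2 of the 3 arrays.

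The HoxD trio sits between Hoxd11 on its 5′ side and Hoxd3 on its 3′ side, the nearest measured genes, which were not detected. To show what lies ahead of these genes, the 250 bases before the annotated start are given 5′ to 3′ for all 5, as RefSeq has them in GRCm38.p6. The arrays come with no build of their own, so these positions are those of the RefSeq table. Capitals mark matches on either strand to any of 5 motifs: the TATA box TATAAA, the CCAAT box CCAAT, the GC box GGGCGG, the Pbx-Hox site TGATNNAT and the homeobox core TAATTA.
Hoxd11 (chr2:74682073-74682322, + strand): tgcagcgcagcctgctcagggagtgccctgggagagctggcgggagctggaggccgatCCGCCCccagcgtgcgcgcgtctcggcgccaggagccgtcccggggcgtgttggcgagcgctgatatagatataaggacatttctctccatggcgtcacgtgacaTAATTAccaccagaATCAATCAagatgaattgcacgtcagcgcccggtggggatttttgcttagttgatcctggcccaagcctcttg
Hoxd10 (chr2:74691641-74691890, + strand): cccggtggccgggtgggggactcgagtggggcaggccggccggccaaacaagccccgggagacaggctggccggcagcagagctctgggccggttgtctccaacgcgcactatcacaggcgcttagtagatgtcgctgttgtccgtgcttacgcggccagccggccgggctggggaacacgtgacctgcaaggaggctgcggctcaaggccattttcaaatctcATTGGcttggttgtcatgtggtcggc
Hoxd9 (chr2:74697513-74697762, + strand): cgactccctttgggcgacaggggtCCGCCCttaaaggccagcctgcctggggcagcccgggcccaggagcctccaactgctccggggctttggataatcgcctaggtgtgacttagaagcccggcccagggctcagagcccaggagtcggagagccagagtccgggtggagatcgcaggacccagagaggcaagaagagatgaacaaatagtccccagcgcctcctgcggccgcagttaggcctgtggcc
Hoxd8 (chr2:74704365-74704614, + strand): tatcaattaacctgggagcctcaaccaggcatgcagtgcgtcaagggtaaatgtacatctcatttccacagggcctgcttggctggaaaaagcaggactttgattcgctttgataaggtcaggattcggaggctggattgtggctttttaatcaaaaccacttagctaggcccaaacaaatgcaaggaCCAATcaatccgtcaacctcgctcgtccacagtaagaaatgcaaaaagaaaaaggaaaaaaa
Hoxd3 (chr2:74711743-74711992, + strand): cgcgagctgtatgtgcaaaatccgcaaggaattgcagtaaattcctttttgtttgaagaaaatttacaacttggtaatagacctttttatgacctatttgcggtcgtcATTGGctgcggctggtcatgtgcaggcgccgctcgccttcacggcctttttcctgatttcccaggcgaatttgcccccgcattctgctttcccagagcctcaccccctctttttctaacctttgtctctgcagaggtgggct

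The 3 windows of the trio did not share a base composition or a motif. GC content was 44.4% before Hoxd8, 65.2% before Hoxd9 and 65.6% before Hoxd10, against a median of 52.4% over 32851 RefSeq promoter windows of the same length. They held 6, 13 and 20 CpG dinucleotides, where the median window holds 6. The Hoxd8 and Hoxd10 windows each had 1 CCAAT match, as 33.85% of all windows do at least once. The Hoxd9 window had none and held 1 GC box, a motif found in 32.7% of windows. None of the 3 had a TATAAA, TGATNNAT or TAATTA match, which 12.4%, 7.68% and 4.84% of windows have. Of the edge genes, Hoxd11 has a pair of annotated starts. The window printed, the one before the more 3′ start, had TGATNNAT, TAATTA and GC box matches, and the Hoxd3 window had 1 CCAAT match. Matches of overlapping motifs were marked together, and a match is only an occurrence of letters. Of the 33 members, 19 have a window in the table.

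Hoxd8 read 10.49, 10.83 and 10.61 at passages 13, 14 and 18, a mean of 10.65 ± 0.17 (SD, n = 3). Its second probe set gave 10.42, 10.67 and 10.72, so both read it bright on all arrays. The mean of the first ranks 1070th of 18194 genes, at the 94.1st percentile. Hoxd9, a factor of trunk and proximal limb patterning, read 10.25, 10.71 and 10.43 (10.46 ± 0.23, SD, n = 3; 93.1st percentile). Hoxd10 read 9.63, 9.87 and 10.02 (9.84 ± 0.20, SD, n = 3; 88.8th percentile). Each of these 3 genes varied by at most 1.38-fold between any 2 cultures, and Hoxd9 was highest at passage 14 and Hoxd10 at passage 18. The 2 Hoxd8 probe sets differed in this, the brighter being highest at passage 14 and the other at passage 18.

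No other HoxD gene was detected. Hoxd11 read 4.46, 5.77 and 3.88 and passed the floor at passage 14 alone. Hoxd12, a gene of the distal limb, stayed below it, between 4.05 and 4.57. Hoxd13, the most 5′ gene and a digit patterning factor, read 3.15, 7.45 and 4.10, so it lay well above the floor at passage 14 and below it in the other cultures. Its second probe set kept that order, at 3.27, 4.24 and 3.71, but never reached the floor. At the 3′ end, Hoxd1 stayed between 2.06 and 2.14 and Hoxd3 between 3.40 and 4.29. A pair of probe sets annotated to both Hoxd3 and Hoxd4 also read below the floor, between 2.58 and 4.66. Hoxd3os1, a non-coding RNA at the Hoxd3 locus, was detected at 6.87, 7.35 and 6.82 by 1 of its probe sets, while the other was below the floor. The annotated spans of Hoxd10 and Hoxd11 overlap in RefSeq, so some transcripts of the pair may share sequence.

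HoxA had 2 of 9 genes detected (22.2%, against 49.1% of all genes). Hoxa3, a factor of neck and pharyngeal arch derivatives, read 6.91, 7.40 and 8.21 (7.51 ± 0.66, SD, n = 3). Only the brightest of its 4 probe sets was above the floor. Its RefSeq span overlaps those of Hoxa4, Hoxa5 and Hoxa6. Hoxa10, a factor of posterior axial and reproductive tract identity, read 5.66, 7.503 and 7.93 (7.03 ± 1.20, SD, n = 3), which at passage 13 is just above the floor of 5.64. Its other probe set read 2.34, 2.34 and 2.33, so the gene's level rests on 1 probe set, of a kind designed to read several transcripts of a gene.

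Hoxa9 read 3.43, 7.98 and 6.42 and was not above the floor at passage 13. Its second probe set gave 5.06, 6.92 and 5.55 and was above the floor at passage 14 alone. Both probe sets thus put the gene highest at passage 14. Only the brighter one put it lowest at passage 13, since the second was under the floor at both 13 and 18. Hoxa5, a factor of lung and cervicothoracic patterning, read 4.84, 5.32 and 6.56, above the floor at passage 18 alone, as was its second probe set (4.66, 4.65 and 5.99). Hoxa11, a limb and kidney factor, was above the floor at passage 14 alone, at 4.17, 5.90 and 4.46. Hoxa7 read 4.61, 5.56 and 5.20 and, like Hoxa2, Hoxa4 and Hoxa13 (from 2.97 to 4.11), was below the floor in every culture.

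HoxB had 4 of 9 genes detected (44.4%, against 49.1% of all genes). This was the most of any cluster, though HoxD was close with 3 of 8 (37.5%). Hoxb4, known for its part in blood stem cell expansion, read 7.38, 7.03 and 6.79 (7.07 ± 0.30, SD, n = 3), and its second probe set was below the floor. Hoxb5, a factor linked to vascular differentiation, read 6.45, 6.61 and 7.33 (6.79 ± 0.47). Hoxb9 read 5.81, 6.66 and 6.43 (6.30 ± 0.44). Hoxb3 was the lowest detected HoxB gene, at 5.89, 5.77 and 5.81, close to the floor on each array, and its second probe set fell below it at passage 14. Just outside, Hoxb6 read 5.35, 5.35 and 6.49 and passed the floor at passage 18 alone. Hoxb1 (1.90 to 1.96), Hoxb2 (4.06 to 4.74), Hoxb7 (4.51 to 4.74) and Hoxb13 (4.44 to 4.85) were below it throughout. A probe set annotated to both Hoxb7 and Hoxb8 read 6.63, 7.20 and 6.89, above the floor throughout, and which of these genes it read cannot be told here.

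HoxC had 1 of 7 genes detected (14.3%, against 49.1% of all genes). Its single detected gene, Hoxc9, read 5.68, 5.87 and 5.85, next to the floor on each array. The highest undetected gene by mean, Hoxc6, read 4.72, 4.79 and 4.74 by its brightest probe set. Hoxc10, a hindlimb and posterior trunk gene, read 4.22, 3.73 and 5.86 and passed the floor at passage 18 alone. Hoxc8 read 2.28, 2.44 and 4.29, and Hoxc4, Hoxc5 and Hoxc13 lay between 2.50 and 4.39, so these 4 were below the floor on all arrays.

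By position, 3 of 10 genes of paralog groups 1 to 4 were detected, 2 of 9 of groups 5 to 8 and 5 of 14 of groups 9 to 13. These shares are 30.0%, 22.2% and 35.7%, against 49.1% of all genes. Group 9, with a member in each cluster, had the most, with Hoxb9, Hoxc9 and Hoxd9 detected and Hoxa9 above the floor on 2 of 3 arrays. Groups 3 and 10 each had 2 of 3, Hoxa3 and Hoxb3, and Hoxa10 and Hoxd10. No measured gene of groups 1 and 2, of groups 6 and 7, or of groups 11 to 13 was detected in all cultures. Within a group clusters could differ, as in group 8, where Hoxd8 was detected at 10.65 and Hoxc8 was below the floor on all arrays.

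**Figure D2:**
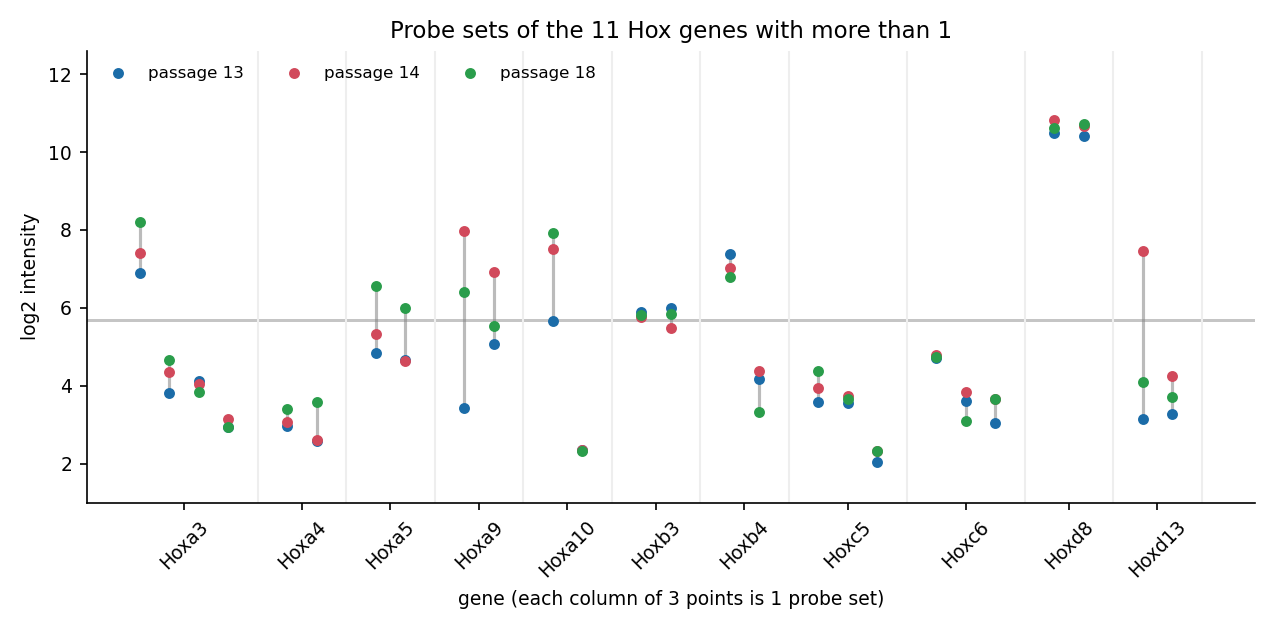
Log2 intensity of each probe set (columns of 3 points, 1 per passage) of the 11 Hox genes that have more than 1, with a grey line at the floors. The 2 Hoxd8 probe sets lie together between 10.42 and 10.83, both Hoxa9 probe sets are highest at passage 14, and of Hoxa3, Hoxa10 and Hoxb4 only 1 probe set lies above the floor.

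Between cultures, the detected Hox genes mostly read higher at passages 14 and 18 than at passage 13. Among the 10 detected members 8 read higher in the passage 14 culture than in that of passage 13, where 48.3% of all detected genes did. The median difference of the members was 0.29, against -0.01 over all 8925 detected genes. From passage 13 to 18, 8 of 10 were higher (48.4% of all detected genes), with a median of 0.28 (all detected genes -0.01). From 14 to 18 the count was 5 of 10 (51.0% of all detected genes), with a median of 0.01 (all detected genes 0.01). These comparisons share their arrays, so they are not independent of each other. Hoxb3 and Hoxb4 were the exceptions, lower at both later passages than at 13. At least 2-fold apart between passages 13 and 14 was 1 detected member, Hoxa10, where 4.86% of detected genes were. Hoxa3 and Hoxa10 were 2-fold apart between 13 and 18 (4.06% of detected genes), and 0 of 10 between 14 and 18 (11.5%).

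For genes above the floor at 1 of a pair of passages, the value under the floor was raised to it. The fold is then a lower bound for the brightest probe set, not for every probe set of the gene. Such a gene is by this choice higher at the passage where it passed, so its direction supports nothing and only the size is given. At passage 14 Hoxa9 was at least 5.04-fold and Hoxd13 at least 3.50-fold higher than at 13, and Hoxa10 was 3.58-fold higher. These 3 genes were among the 14 members above the floor at passage 13 or 14. Of all such genes 2.36% were 2-fold higher and 5.64% were 2-fold apart in either direction. Their other probe sets did not bear out these sizes. That of Hoxa9 differed by 1.86 log2 units as deposited, where the bound is 2.33. That of Hoxd13 was under the floor on all arrays, and that of Hoxa10 read 2.34 at both passages. Hoxa11 and Hoxd11, also above the floor at passage 14 alone, were at least 1.19-fold and 1.09-fold higher, close to the limit set by the floor. At passage 18 Hoxa10 was 4.80-fold and Hoxa3 2.46-fold higher than at 13 (2 of 14 members, against 2.82% of all such genes higher and 4.99% either way). Hoxa5 and Hoxb6 were at least 1.89-fold and 1.80-fold higher, Hoxa9 at least 1.71-fold and Hoxc10 at least 1.16-fold. Between passages 14 and 18, Hoxa9 was 2.94-fold and Hoxd13 at least 3.32-fold lower at 18 (2 of 17 members, against 5.45% of all such genes lower and 12.5% either way).

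**Figure D3:**
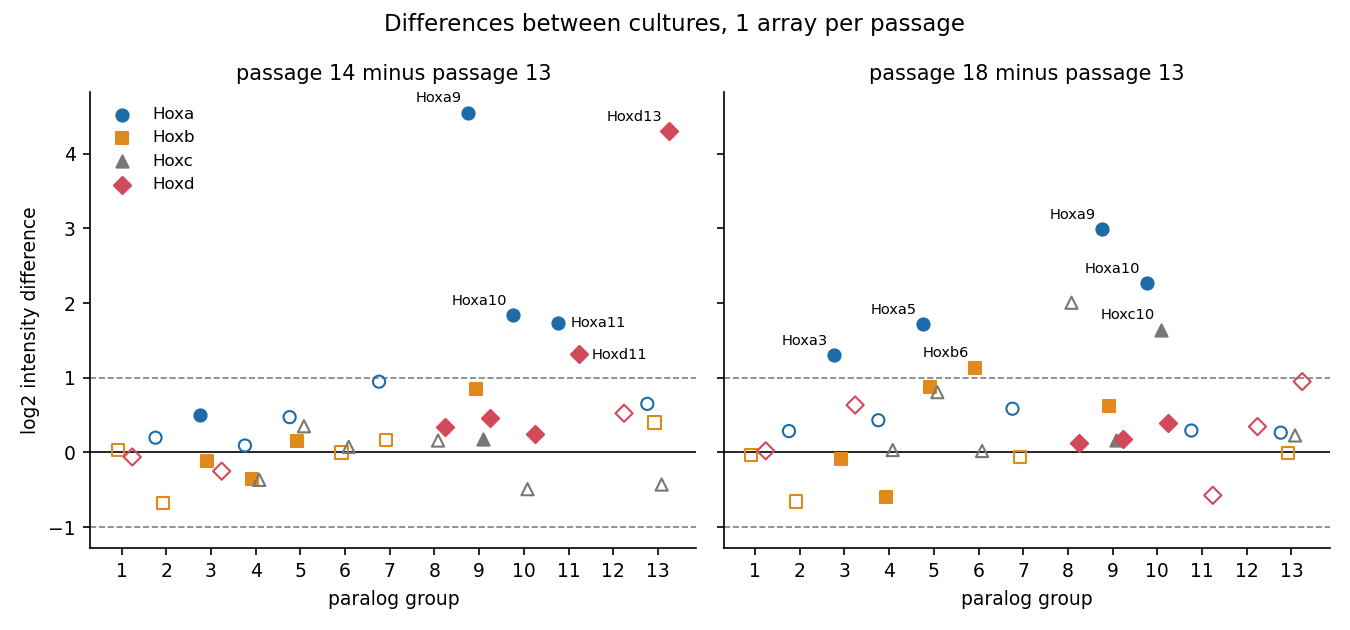
Difference in log2 intensity from passage 13, for passage 14 (left) and passage 18 (right), by paralog group, with 1 symbol per Hox gene and cluster. Filled symbols are above the floor on 1 or both arrays, open symbols on neither, and dashed lines mark 2-fold. Values are as deposited, so a gene under the floor at passage 13 shows a larger difference than its bound: Hoxa9 stands at 4.55 on the left, where its bound is 2.33.

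Over all 33 members, 24 read higher at passage 14 than at 13 and 26 read higher at 18 than at 13, where 9043 and 8599 of all 18194 genes did. In groups 9 to 13 this was 12 of 14 members at passage 14 and 12 of 14 at passage 18, in groups 5 to 8 it was 8 of 9 at both, and in groups 1 to 4 it was 4 and 6 of 10. Most of these members had values under the floor, which are upper limits, so many of these directions were not measured, and the difference between position groups was not tested. Markers of other cells moved between the same cultures. The summed intensity of the mural markers Acta2, Pdgfrb and Rgs5 was 1556, 384 and 5509 at passages 13, 14 and 18, with Rgs5 below the floor on all arrays. That of the fibroblast markers Pdgfra, Col1a1, Dcn and Thy1 was 2800, 1547 and 3026, with Pdgfra and Dcn below it. This sum joins genes that moved in opposite directions from passage 13 to 18. Col1a1 read 8.04, 6.54 and 10.26, and Thy1 read 11.29, 10.47 and 10.75. The mural and fibroblast sums were both lowest at passage 14. That of the leukocyte markers was 144, 257 and 71.3, highest at passage 14, with Ptprc and Itgam below the floor and Cd68 at 6.99, 7.93 and 5.86. That of the keratinocyte markers was 77.1, 75.0 and 77.2, with Krt14 and Cdh1 below the floor on all arrays. The lymphatic markers did not move together. Lyve1 (10.43, 11.52 and 7.35) and Sox18 (9.23, 10.27 and 7.87) were highest at passage 14. Pdpn (12.17, 10.92 and 11.86) and Nr2f2 (10.48, 10.26 and 10.49) were lowest at passage 14. Flt4 was highest at passage 13 (10.99, 10.87 and 9.85), and Prox1 was above the floor at passage 13 alone. The part of other cells in the Hox differences, and that of the 3′/5′ ratios at passage 18 (Gapdh 19.4, Actb 1.42), was not tested. In such bulk RNA, more cells with a transcript and more transcript per cell cannot be told apart.

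No Hox gene passed a test of trend with passage number. Of 9530 genes tested with limma, 0 passed after Benjamini-Hochberg adjustment (0%), and 332 (3.48%) had an unadjusted p under 0.05. Of the 12 Hox genes tested, 0 passed, and 2 had an unadjusted p under 0.05. Hoxa3 had a slope of 0.24 ± 0.07 log2 units per passage (SE; limma adjusted p = 0.89) and was higher at each later passage. Hoxb6 had a slope of 0.24 ± 0.08 (SE; limma adjusted p = 0.89), which rests on the passage 18 value. Genes were tested if their mean lay above the mean floor, and Hoxb6 was under the floor at passages 13 and 14. It was thus tested only because of its passage 18 value, so its place among the 2 carries no weight. Hoxd8 and Hoxd9 had slopes of 0.0015 ± 0.059 and 0.0046 ± 0.0676 (SE).

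Hox proteins bind DNA with partners of the TALE homeodomain families. Of the 8 measured cofactor genes 4 were detected, with Meis2 at 9.09 ± 0.07, Pbx2 at 8.56 ± 0.10 and Pbx3 at 7.998 ± 0.328 (SD, n = 3) ahead of Pknox1. Meis3 was above the floor on 2 arrays, and Pbx4, Meis1 and Pknox2 were below it on all. No detected cofactor was 2-fold apart between any 2 cultures.

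Polycomb complexes hold Hox genes silent and Trithorax complexes keep them active. Of 22 measured Polycomb genes 17 were detected (77.3%, against 49.1% of all genes). They were led by the histone-binding subunits Rbbp4 (12.80 ± 0.12) and Rbbp7 (11.19 ± 0.27) and by Eed (10.57 ± 0.09, SD, n = 3). The methyltransferase gene Ezh2 was at 9.16 ± 0.11. Phf1, Phf19, Cbx7 and Cbx8 were below the floor on all arrays and Cbx2 was above it at passage 14 alone. Of 11 measured Trithorax genes 10 were detected (90.9%, against 49.1% of all genes), and Kmt2b was not. They were led by Dpy30 (9.98 ± 0.26), Ash2l (8.997 ± 0.173) and Wdr5 (8.53 ± 0.31). In both lists 0 detected genes were 2-fold apart between any 2 cultures.

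Retinoic acid switches on 3′ Hox genes in the embryo. Of 17 measured genes of its pathway 7 were detected (41.2%, against 49.1% of all genes). They were led by the retinol dehydrogenase gene Rdh10 (8.52 ± 0.78), Nrip1 (8.23 ± 0.25) and the receptor gene Rxra (8.20 ± 0.30, SD, n = 3). Rdh10 read 8.36, 7.82 and 9.36, a 2.90-fold difference between passages 14 and 18, and it just reached 2-fold between 13 and 18. Crabp1, a retinoic acid binding protein, read 8.09, 6.38 and 8.18, lowest at passage 14. Among genes not detected, the retinaldehyde dehydrogenase Aldh1a1 read 7.31, 5.17 and 9.54 and the degrading enzyme Cyp26b1 read 5.998, 5.47 and 7.24, both under the floor at passage 14 alone. Crabp2 was under it at passage 14 alone as well, and Dhrs3 was above it at passage 18 alone. Rarb, Rxrg, Aldh1a2, Aldh1a3, Cyp26a1 and Stra6 were below it throughout. Of the 8 related homeobox genes of the ParaHox, Cdx and Evx families 0 were detected (49.1% of all genes were), with means between 2.20 and 4.44.

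Most measured genes around the clusters were detected, though not all of the nearest ones. Of 38 measured genes among the 5 nearest protein-coding genes on each side of each cluster, 29 were detected (76.3%, against 49.1% of all genes), and 0 of these were 2-fold apart between any 2 cultures. Hnrnpa2b1 beside HoxA (12.36 ± 0.14), Hnrnpa1 beside HoxC (11.90 ± 0.12) and Atp5g3 beside HoxD (11.73 ± 0.07, SD, n = 3) were the highest. Next to HoxD, Lnpk and Mtx2 were detected at 8.002 ± 0.279 and 9.64 ± 0.19, and Evx2, the homeobox gene between Lnpk and Hoxd13, was below the floor at 4.55, 4.07 and 4.19. Evx1, at the same end of HoxA, was below it as well (3.81 to 3.94). Creb5 was under the floor at passage 14 alone, at 5.80, 4.81 and 7.55. The remaining genes not detected were Nfe2l3, Nfe2, Npff and, beside HoxB, Skap1, Ttll6 and Calcoco2. Skap1 and Ttll6 are the nearest of these protein-coding genes on either side of HoxB.

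**Figure D4:**
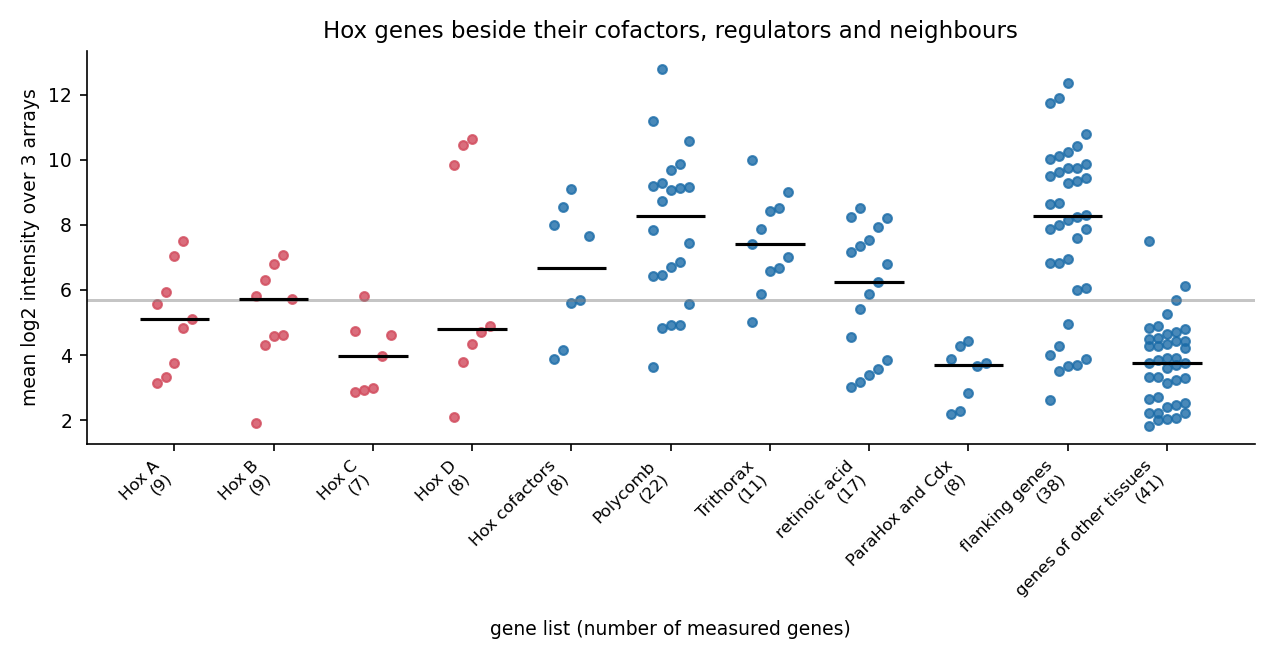
Mean log2 intensity over the 3 arrays for each measured gene (points) of the Hox clusters (red), of the lists of cofactors, regulators and flanking genes (blue) and of the genes of other tissues that set the floor, with a bar at each median and a grey line at the floors. The HoxD trio stands alone among Hox genes above 9, while Polycomb and flanking genes have medians of 8.28 and 8.27.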

How the data were processed

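RNA of 3 imLEC cultures was amplified in 1 linear isothermal round and hybridised to 1-colour Affymetrix arrays, per the labels' protocols. The deposited values are linear signal intensity, 1 per probe set and array. Per the submitters' processing notes MAS5 was used, with role and version not given in the sources used here. Medians and 95th percentiles were alike on all arrays, so the deposited intensity was only taken to log2.

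Of 45101 probe sets, 34958 have 1 annotated gene, 932 several and 9211 none in the annotation used. Entrez identifiers gave current RefSeq symbols (GRCm38.p6) for 34754 of those with 1 gene. Each gene was represented by the probe set with the highest mean. The floor was the 95th percentile of 41 measured genes of other tissues (list of 46), of which Apoa2 and Prm1 were themselves detected. limma 3.58.1 (R 4.3.3; lmFit, eBayes with an intensity trend) fitted the passage trend to the 9530 genes with a mean above the mean floor, with calls at an adjusted p under 0.05, and was tested on simulated data. It leaves 1 residual degree of freedom per gene, and the p-values measure only the spread of these 3 cultures, which may be technical. Members and lists were chosen with earlier results of these data known. Values on every array are given for the 15 Hox genes highest by mean, the genes nearest to the floor per cluster, and those 2-fold apart. In each other list, the 3 highest detected genes and those not detected are named. Ezh2, Lnpk, Mtx2, Crabp1 and Hox values beyond that rule were added after their values were seen. Alternatives tried were the floor, the choice of probe set, the normalization, an offset of 16, the filter, the form of the trend and leaving out each culture. The number of arrays limits precision.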

Additional observations from a re-analysis of the deposited data

How the results depend on the processing

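Detection depended most on the floor. With the floor at the highest of the other-tissue genes, set by Apoa2, 3 Hox genes were detected, Hoxd8, Hoxd9 and Hoxd10, with 0 in HoxA, 0 in HoxB and 0 in HoxC, and with 0 in groups 1 to 4, 1 in groups 5 to 8 and 2 in groups 9 to 13. The 2-fold counts between passages 13 and 14, 13 and 18, and 14 and 18 were then 0, among detected genes and with values raised to the floor. With the floor at the 90th percentile, 11 were detected, and 1 detected member was 2-fold apart between passages 14 and 18. With values raised to that floor, 5 members were 2-fold apart between 13 and 18 and 4 between 14 and 18. At the array median, an alternative added after seeing the data, 13 were detected, 2 of them in HoxC. The counts with values raised to the floor were added after seeing the data too.

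With each gene read as the median of its probe sets, 10 were detected, of which 8 were in the main set, with 1 in HoxA and 4 in groups 5 to 8. Hoxa3 and Hoxa10 were lost and Hoxa5 and Hoxb6 gained, so the HoxA gene was Hoxa5. The 2-fold counts of detected genes were then 0 between passages 13 and 14 and 2 between 14 and 18, and with values raised to the floor 4 between 13 and 18. Without probe sets that read several transcripts or genes, 1 HoxA gene was detected, since Hoxa10 was lost. The 2-fold counts of detected genes were then 0 between passages 13 and 14 and 1 between 13 and 18, and 1 between 13 and 18 with values raised to the floor. Leaving out each culture gave 10 to 11 detected Hox genes, 2 to 3 in HoxA, 4 in HoxB, 1 in HoxC and 3 in HoxD. The 3 position groups had 3, 2, and 5 to 6. Since detection asks for every culture used, leaving one out can only keep or raise a count, so these values do not test its stability. Without passage 13, Hoxa9 was the gene gained. Of 144 alternative values, 119 stayed within 1.5 times the count, or within the spread of the cultures for a median, and 25 did not. That spread, the median SD of detected Hox genes, was 0.27, close to the medians of 0.29 and 0.28 themselves. It is thus a loose limit for them. The 119 also include the counts from leaving out a culture, which could not fall, and the trend counts of 0. So 119 overstates how stable the results are. The trend called 0 genes in every alternative. The cause of the other shifts was not tested. No paired analysis was possible because the cultures form a single group.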
